A study of Mus musculus with 6 samples.

Results

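The perinuclear theca is the cytoskeletal capsule that surrounds the sperm nucleus, and 10 genes that encode its structural and actin-like proteins were followed in testes without the long non-coding RNA gene 1700052I22Rik. The genes were chosen by name, Actl7a, Actl7b, Actl9, Actrt1, Actrt2, Actrt3, Capza3, Ccin, Cylc1 and Cylc2, and all 10 were found among the 54532 genes of the deposited count table. The 6 RNA sequencing libraries were made from whole mouse testis, 3 labelled wild type (WT) and 3 labelled knockout (KO) of 1700052I22Rik. The study asks what this transcript does in spermatogenesis and in the condensation of spermatid chromatin. The sources used here give neither the deleted part of the gene nor the strain or age of the mice. The labels do not tie replicates to animals, and the p-values therefore reflect the spread among these libraries, which may be technical.

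The theca is built in spermatids, the haploid germ cells that follow meiosis, while the acrosome spreads over the nucleus and the nucleus condenses. Its layer under the acrosome holds actin-like proteins that anchor the acrosome to the nuclear envelope, and its posterior part holds the basic proteins calicin and cylicin and is known as the place of egg-activating factors. Loss of single components is known from mouse models and infertile men to give detached acrosomes, misshapen heads and failed fertilisation.

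Of the 10 genes, 8 had a promoter in the RefSeq table (build GRCm38.p6), which gives 250 bases before and 50 bases after the annotated start. Reading them showed 2 related octamers. TGACGTCA is the palindromic cyclic AMP response element, to which the spermatid regulator CREM binds, and TGATGTCA, read as TGACATCA on the other strand, is a variant of it. One or the other stood in 5 of the 8 promoters, against 1760 of 32851 promoters of the same length in the table (5.36%), both strands searched. The octamers were chosen after these promoters had been read, so the comparison with all promoters is not a test. A match is a description of letters and not of binding, and promoters of other spermatid genes were not compared. The last 150 bases before the first annotated base are shown for the 5, 5′ to 3′ on the gene's strand, with the octamer in capitals.
Actl7a, chr4:56743263-56743412, plus strand: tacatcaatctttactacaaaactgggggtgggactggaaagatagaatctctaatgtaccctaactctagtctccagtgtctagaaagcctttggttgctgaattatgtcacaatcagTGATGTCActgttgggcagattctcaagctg
Actl7b, chr4:56741444-56741593, minus strand: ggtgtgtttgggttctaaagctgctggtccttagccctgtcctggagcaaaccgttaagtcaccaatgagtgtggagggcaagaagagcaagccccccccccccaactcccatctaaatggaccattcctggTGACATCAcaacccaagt
Actl9, chr17:33432746-33432895, plus strand: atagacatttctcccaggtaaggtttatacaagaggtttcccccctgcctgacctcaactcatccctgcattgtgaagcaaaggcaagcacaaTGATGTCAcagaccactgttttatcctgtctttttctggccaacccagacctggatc
Ccin, chr4:43983333-43983482, plus strand: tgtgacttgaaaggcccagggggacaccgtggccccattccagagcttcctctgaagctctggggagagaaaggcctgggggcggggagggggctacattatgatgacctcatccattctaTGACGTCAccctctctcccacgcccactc
Cylc1, chrX:111110268-111110417, plus strand: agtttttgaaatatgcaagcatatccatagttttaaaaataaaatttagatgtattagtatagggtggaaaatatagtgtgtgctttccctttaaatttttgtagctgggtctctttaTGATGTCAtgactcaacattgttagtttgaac
Ccin held TGACGTCA, which 1.79% of all promoters held. Actl7a, Actl7b, Actl9 and Cylc1 held the variant, which 3.62% held. The octamer ended 10 bases before the annotated start of Actl7b, 21 before that of Ccin, 23 before that of Actl7a, 24 before that of Cylc1 and 49 before that of Actl9. The promoters of Actrt1, Actrt2 and Actrt3 held neither octamer in this window. The other two members are Capza3 and Cylc2.

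Most of the genes are compact. Actl7a, Actl7b, Actl9, Actrt1, Actrt2 and Ccin have 1 annotated exon each, Actrt3 and Capza3 up to 2, Cylc2 up to 5 and Cylc1 up to 6. GENCODE M21 tags Actl7a, Actl7b and Actl9 as retrogenes. Actl7a and Actl7b lie on chromosome 4 with 1969 bases between them and point away from each other. Ccin, Cylc2 and Actrt2 are elsewhere on chromosome 4, Actrt1 and Cylc1 are on the X chromosome, Actrt3 is on chromosome 3, Capza3 on chromosome 6 and Actl9 on chromosome 17. Over all annotated transcripts of each member, Actl7b shared stretches of 50 bases with Gm26657 and Capza3 with Plcz1 (58 of its 1524 such stretches), and the other 8 members shared none with a transcript of another gene in GENCODE M21.

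The libraries held 17635045 to 18117593 counts. The targeted transcript had 185, 175 and 218 counts in WT 1 to WT 3 and 0 in each KO library, which matched the labels. Markers of elongating spermatids were abundant in every library, with a summed level of 17949.5 to 20089 CPM (library-size-scaled counts, with TMM) in WT and 17432 to 20635 in KO, and all 10 were detected. Of 5 epididymis markers Lcn5 and Lcn8 were at 0 and the sum did not exceed 0.223 CPM. WT 1 and KO 2 lay at -22.8 and -30.2 on the first principal component, where the others lay at 6.98 to 17.5, and they had the lowest summed Leydig cell markers, at 207 and 226 CPM against 415 to 812. In whole testis a higher share of spermatids and more RNA per spermatid cannot be told apart.

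Actl7b, which encodes a testis-specific actin-like protein of spermatids, was listed at 0 in all 6 libraries. Among 107528788 counts, a count of 0 allows up to 3 counts, or 0.0279 CPM, which covers counting error only. Its neighbour Actl7a had 5669 to 6377 counts per library. Of the 1439 exonic bases of Actl7b (chromosome 4, 56740005 to 56741443, minus strand), 1308 (90.9%) are also covered on the opposite strand by Gm26657, a second protein-coding model at 56740070 to 56741377 that RefSeq treats as a synonym of Actl7b. Gm26657 was at 0 in all 6 libraries too. The sources used here do not say how reads in 2 genes were counted or whether strand was used.

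The zero of Actl7b was shared by other genes in the same position. Among protein-coding genes with at least 90% of their exonic bases under a gene on the opposite strand, 52 of 60 (86.7%) were at 0 in all 6 libraries. Among those with no exonic base in another gene the share was 2319 of 15411 (15%). With under 50% of bases under an opposite-strand gene, and none shared on the same strand, it was 95 of 4605 (2.06%). The classes were not matched for expression level. With predicted Gm models and Rik clones left out, the share was 15 of 22 (68.2%) in the class of at least 90%. It was 1836 of 13868 (13.2%) in the class with no shared base. The 15 included Actl7b itself and the histone genes Hist2h2aa1, Hist2h2aa2, Hist2h2bb and Hist2h3b. Whether these would be at 0 without the overlap was not tested. One of the 15 was Pfn3, a testis profilin gene whose 545 exonic bases all lie under Slc34a1. The value of 0 for Actl7b is therefore given as a value of the deposited table and not as a level of its transcript, and Actl7b entered no test.

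**Figure D1:**
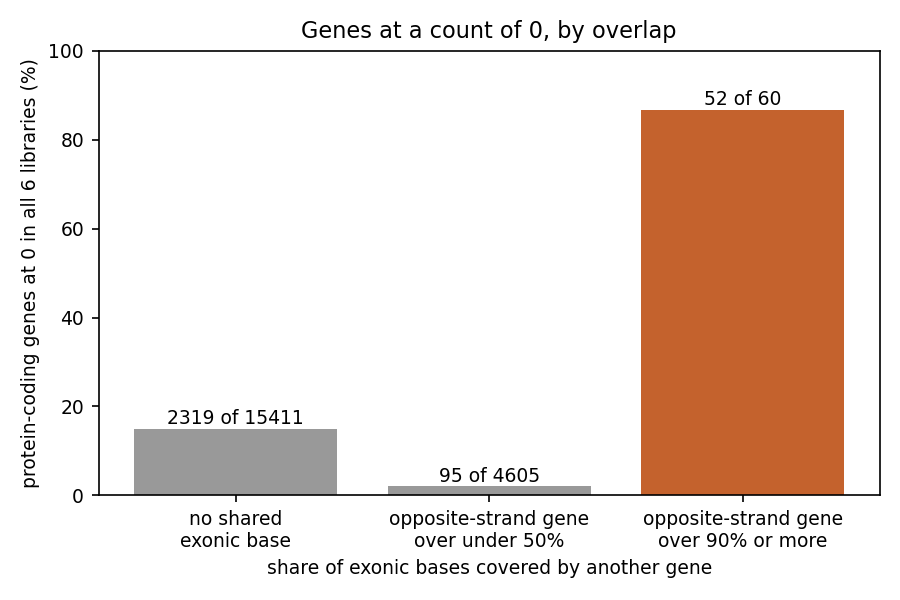
Share of protein-coding genes at a count of 0 in all 6 libraries (vertical axis, percent) by how much of their exonic sequence lies in another gene (horizontal axis), with numbers of genes above the bars. The right bar, to which Actl7b and Pfn3 belong, stands at 86.7%, the left bar at 15% and the middle bar at 2.06%.

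The other 9 genes were expressed well above the low-count limit, at levels that spanned a wide range. Scaled to exonic length, as CPM per kilobase, the mean over the 6 libraries was highest for Actl9 at 405 (range 382 to 436) and lowest for Actrt1 at 17.1 (range 14.6 to 20.4). Actl9 stood above 99.5% of the tested protein-coding genes by this measure and Actrt1 above 77.8%. In order, Actl9 and Actrt2 (386, range 312 to 454) overlapped, as did Capza3 (144) and Ccin (139), and Cylc2 (74.3) and Actrt3 (41.9) by their extreme libraries, and Actrt3 and Cylc1 (39.3). Actl7a, at 225 (range 208 to 236), overlapped with neither neighbour, and Cylc1 did not overlap with Actrt1. The 3 actin-related T genes thus differed in level, Actrt2 being highest and the X-linked Actrt1 lowest, with no overlap between any 2 of them.

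**Figure D2:**
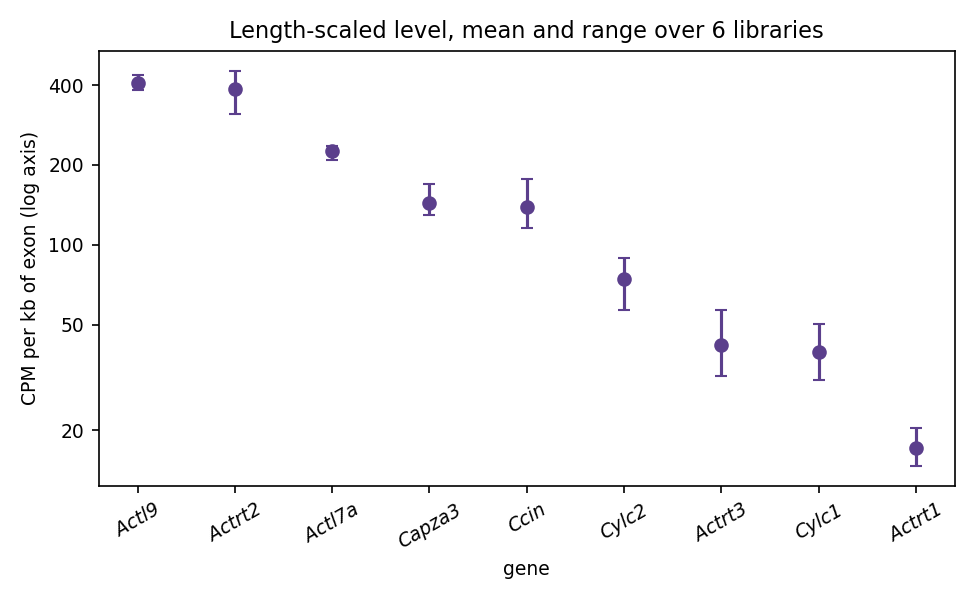
Length-scaled level of the 9 counted genes (vertical log axis, CPM per kilobase of exon), with points at the mean and bars from the lowest to the highest of 6 libraries. Actl9 and Actrt2 lie highest, at 405 and 386, and Actrt1 is lowest at 17.1.

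KO was compared with WT across 19320 genes with edgeR's quasi-likelihood test. Of the 9 members, 0 passed with Benjamini-Hochberg adjustment over all genes (adjusted p from 0.965 to 0.984), and over all genes 1 passed, the target itself (0.00518%). All 9 fitted log2 fold changes were above 0, from 0.04 to 0.28 with a median of 0.22, whereas over all tested genes 49.3% were above 0 and the median was -0.0025. An unadjusted p under 0.05 was reached by 3 of the 9, Capza3, Cylc1 and Actrt1, each higher in KO, against 2.41% of all genes in that direction. DESeq2 and limma-voom also called 0 of the 9, with 4 under an unadjusted p of 0.05 in each, against 3.5% of all genes in DESeq2 and 4.57% in limma-voom. The same 3 had no overlap between the genotypes, as had 4.69% of all genes with KO higher. The members were chosen with earlier results of these data known, and many of them varied together over the same libraries. The 9 are therefore not independent observations, and the counts set here against all genes are a description and not a test. Every one of the 9 intervals at 95% lay between 0.860-fold and 1.55-fold, so a change of 2-fold in either direction was outside all of them. The differences rested much on 2 libraries: without KO 3 the median of the 9 was 0.09 and 0 of 9 had an unadjusted p under 0.05 in edgeR (2.48% of all genes), and without WT 2 the values were 0.14 and 0 of 9 (2.94%).

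**Figure D3:**
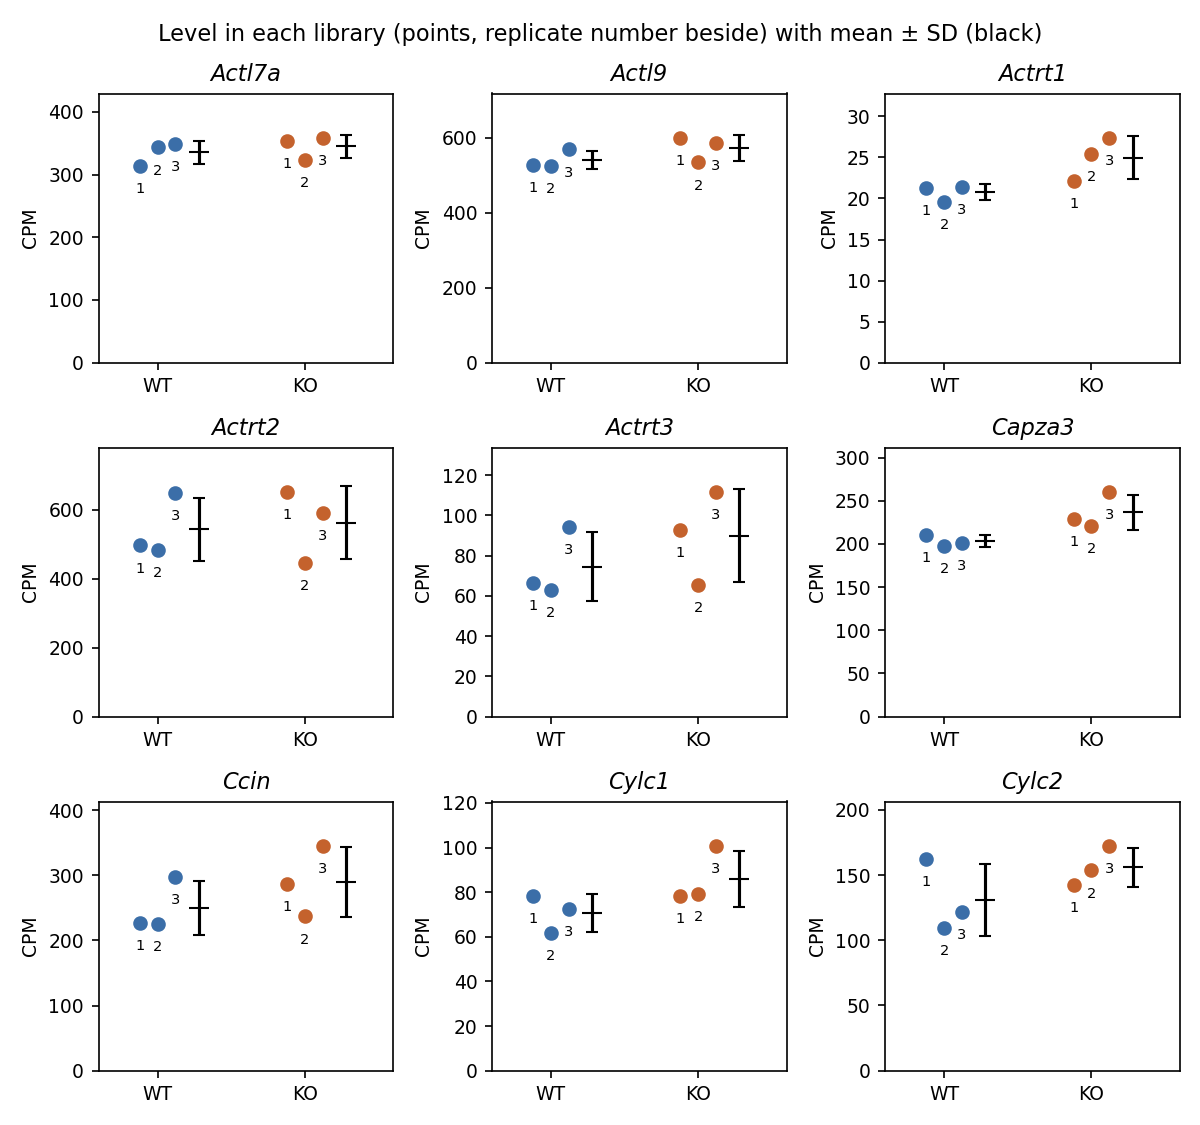
Level of each counted gene (vertical axis, CPM, from 0) in the WT (blue) and KO (orange) libraries, with replicate numbers under the points and the mean ± SD of each genotype in black (n = 3). Capza3, Cylc1 and Actrt1 have every KO point above every WT point, and the other 6 genes overlap.

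Actl7a and Actl9 encode actin-like proteins of the layer under the acrosome that bind each other and are needed to hold the acrosome in place. Actl7a stood at 314, 343 and 348 CPM in the WT libraries and at 354, 324 and 358 in the KO libraries, values being given here and from now on in the order of replicates 1, 2 and 3. Actl9 stood at 528, 524 and 569 CPM in the WT libraries and at 598, 534 and 586 in the KO libraries. For both genes KO 2 lay inside the WT range and the other KO libraries above it. The WT mean of Actl7a was 335 ± 18.3 CPM and its KO mean 345 ± 18.7 CPM (SD, n = 3), and the fitted log2 difference of KO over WT was 0.04 (95% interval -0.11 to 0.20). Those of Actl9 were 540.4 ± 24.6 and 573 ± 34.1 CPM, with a log2 difference of 0.08 (95% interval -0.06 to 0.23). With 1 library left out, the difference of Actl7a ran from -0.0038 without WT 1 to 0.09 without KO 2, and that of Actl9 from 0.05 without KO 1 to 0.14 without KO 2. These were the 2 steadiest members, with a coefficient of variation over the 6 libraries of 5.11% and 5.74%, where the median of 11040 protein-coding genes with at least 5 CPM was 8.94%. That set reaches down to 5 CPM, whereas these 2 had means of 340 and 557 CPM, and genes of like level were not compared. Reads of Actl9 per read of Actl7a numbered 1.68, 1.53 and 1.63 in WT and 1.69, 1.65 and 1.64 in KO, and the groups overlapped (two-sided exact permutation test, p = 0.4).

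Actrt1, Actrt2 and Actrt3 encode actin-related proteins of the T class, of which ACTRT1 is known to join ACTL7A and ACTL9 in a complex. Actrt1 stood at 21.3, 19.6 and 21.4 CPM in the WT libraries and at 22.2, 25.4 and 27.3 in the KO libraries, from 352 to 487 counts per library. All KO libraries lay above all WT libraries, KO 1 by the least. The means were 20.8 ± 0.992 and 25.0 ± 2.61 CPM (SD, n = 3), which gave a log2 difference of 0.27 (95% interval 0.02 to 0.51; unadjusted p = 0.0332 and adjusted p = 0.965 in edgeR). Actrt1 is X-linked, as is Cylc1; on that chromosome the median log2 fold change over 782 tested genes was 0.0020, with 394 above 0.

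Actrt2 and Actrt3 varied more between libraries than between genotypes. Actrt2 stood at 497, 485 and 649 CPM in the WT libraries and at 651, 447 and 592 in the KO libraries. Actrt3 stood at 66.5, 63.0 and 94.1 CPM in the WT libraries and at 92.7, 65.5 and 111 in the KO libraries. In both genes WT 3, KO 1 and KO 3 were the 3 high libraries and WT 1, WT 2 and KO 2 the 3 low ones, so each genotype held high and low values. The log2 fold change of Actrt2 was 0.05 (95% interval -0.22 to 0.32), and it was below 0 when WT 1, WT 2 or KO 1 was left out, to -0.064 without KO 1. That of Actrt3 was 0.27 (95% interval -0.09 to 0.63), the widest interval of the 9. It was 0.09 without KO 3 and 0.16 without WT 2, and 0.47 without WT 3 and 0.46 without KO 2. Actrt3 also had the largest coefficient of variation, 24.4%. Reads of Actrt1 per read of Actrt2 numbered 0.0429, 0.0404 and 0.0329 in WT and 0.0341, 0.0568 and 0.0461 in KO, which overlapped (two-sided exact permutation test, p = 0.4).

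Capza3 encodes the germ cell alpha subunit of capping protein, which closes the fast-growing end of actin filaments as a dimer with the beta subunit from Capzb. Capza3 stood at 211, 198 and 201 CPM in the WT libraries and at 229, 221 and 259.7 in the KO libraries. Every KO library was above every WT library, and the gap between the nearest 2, WT 1 and KO 2, was small beside the distance of KO 3 from the rest. The means were 203 ± 6.78 and 236 ± 20.6 CPM (SD, n = 3), which gave a log2 difference of 0.22 (95% interval 0.05 to 0.39). With an unadjusted p of 0.0141 it had the smallest p of the 9, and its adjusted p was 0.965 in edgeR.

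The other capping subunits had log2 fold changes nearer to 0. Capzb had WT and KO means of 305 ± 17.1 and 307 ± 20.2 CPM (SD, n = 3; log2 fold change 0.0082), and the somatic alpha subunit genes Capza1 and Capza2 had log2 fold changes of 0.04 and 0.02. Reads of Capza3 per read of Capzb numbered 0.710, 0.671 and 0.619 in WT and 0.726, 0.777 and 0.806 in KO. These did not overlap, and the difference of 0.21 on the log2 scale had p = 0.1 in a two-sided exact permutation test, the smallest that 3 against 3 allows, or 0.5 adjusted over 5 ratios. Against Capza1 and Capza2 together the numbers were 0.676, 0.695 and 0.691 in WT and 0.815, 0.664 and 0.872 in KO, with KO 2 below all WT libraries (two-sided exact permutation test, p = 0.4).

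Capza3 stands head to head with Plcz1, the gene of the sperm phospholipase that starts egg activation, and 107 of its 1527 exonic bases (7.0%) lie in Plcz1 as well. Plcz1 stood at 263, 229 and 231 CPM in the WT libraries and at 255, 295 and 286 in the KO libraries, with KO 1 inside the WT range. Its log2 fold change was 0.21 (95% interval 0.04 to 0.38; unadjusted p = 0.0218 and adjusted p = 0.965 in edgeR), close to that of Capza3. Whether strand was used in counting is not given, so reads in the shared stretch cannot be assigned to one of the pair with certainty.

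Ccin encodes calicin, a basic kelch-repeat protein of the posterior theca that binds actin. Ccin stood at 227, 225 and 297 CPM in the WT libraries and at 287, 237 and 344 in the KO libraries. Its high libraries were the same 3 as for Actrt2 and Actrt3, and the genotypes overlapped. The means were 249.6 ± 41.1 and 289.5 ± 53.8 CPM (SD, n = 3), which gave a log2 difference of 0.21 (95% interval -0.06 to 0.48). That difference was 0.07 without KO 3, 0.36 without WT 3 and 0.34 without KO 2.

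Cylc1 and Cylc2 encode the cylicins, basic proteins of the sperm head cytoskeleton whose loss is known to misshape the sperm head. Cylc1 stood at 78.2, 61.6 and 72.6 CPM in the WT libraries and at 78.5, 79.3 and 101 in the KO libraries, so the genotypes were separated only by the small step from WT 1 to KO 1. Its means were 70.8 ± 8.47 and 86.1 ± 12.5 CPM (SD, n = 3), which gave a log2 difference of 0.28 (95% interval 0.04 to 0.52; unadjusted p = 0.0245 and adjusted p = 0.965 in edgeR), and one of 0.16 without KO 3. Cylc2 stood at 162, 109 and 121 CPM in the WT libraries and at 143, 154 and 172 in the KO libraries. WT 1 was second only to KO 3, and the genotypes overlapped. The log2 fold change of Cylc2 was 0.25 (95% interval -0.0082 to 0.51; unadjusted p = 0.0567 in edgeR), and it was 0.43 without WT 1 and 0.14 without WT 2. Reads of Cylc1 per read of Cylc2 numbered 0.483, 0.563 and 0.598 in WT and 0.551, 0.516 and 0.585 in KO, and the ratio did not separate the genotypes (two-sided exact permutation test, p = 1).

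**Figure D4:**
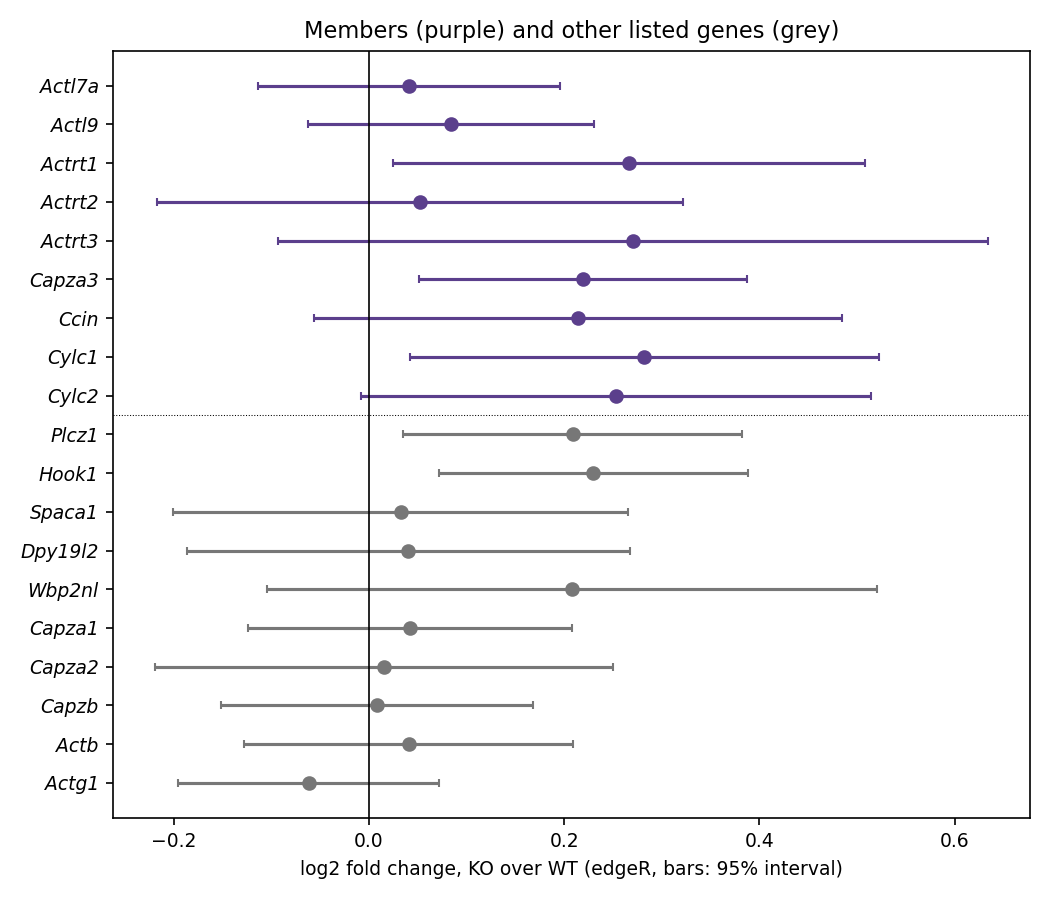
Log2 fold change of KO over WT (horizontal axis) with 95% intervals from edgeR for the 9 counted members (purple) and 10 other listed genes (grey). The intervals of Actrt1, Capza3 and Cylc1 among the members, and of Plcz1 and Hook1 among the others, do not include 0. The grey genes are a selection, and named genes left out include Gsn, whose interval lies below 0 (-0.49 to -0.10).

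The members followed 2 patterns across the libraries. KO 3 was the highest library for 7 of 9 genes, against 18.1% of all tested genes, and WT 2 the lowest for 7 of 9, against 16.8%. In KO 3 all 9 lay above their own mean, by 0.07 to 0.48 on the log2 scale, and in WT 2 all but Actl7a lay below it. Beyond this, Actl7a, Actl9, Actrt2, Actrt3 and Ccin were lower in WT 1 and KO 2 than in WT 3 and KO 1. Cylc2 and Actrt1 were higher in KO 2 than in WT 3 or KO 1, and Capza3 and Cylc1 lay near their mean there. Over the 6 libraries the Pearson correlation of log2 CPM was 0.99 for Actrt3 and Ccin, 0.93 for Capza3 and Cylc1, and -0.23 for Actl7a and Cylc2. These values describe 6 libraries that share depth and cell makeup within each library, and carry no test. WT 1 and KO 2 together left out, the members had a median log2 fold change of 0.28, with 9 of 9 above 0 and 0 passing.

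**Figure D5:**
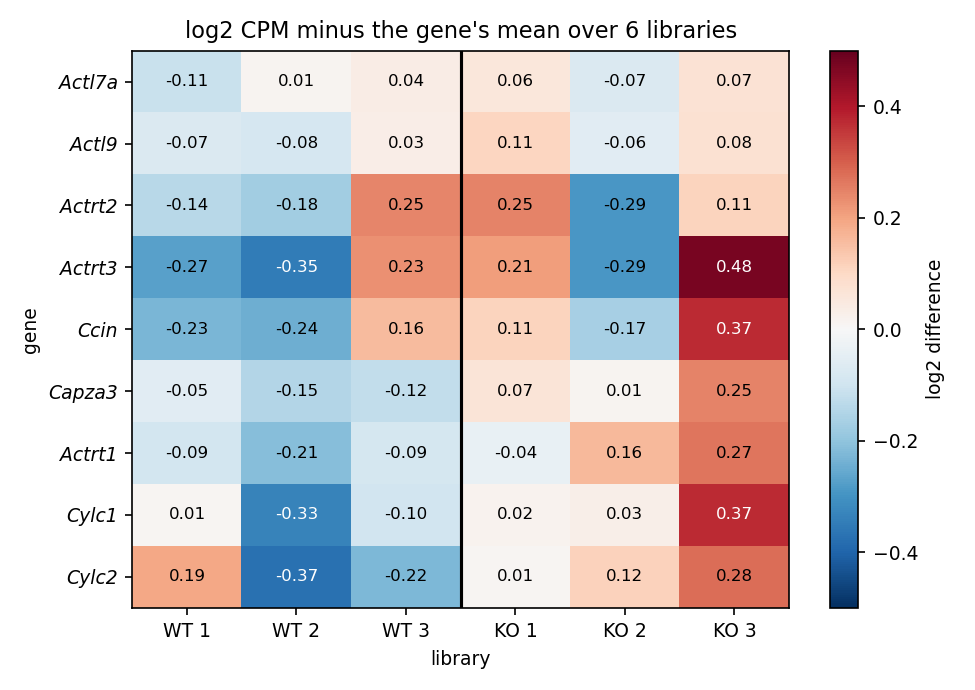
Log2 CPM of each counted gene (rows) in each library (columns), minus that gene's mean over the 6 libraries (colour and printed value). KO 3 is above the mean in all 9 rows, and the upper 5 rows are low in WT 1 and KO 2.

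The genes whose log2 CPM followed the members' mean standardised level most closely over the 6 libraries were sought among 11031 other protein-coding genes with at least 5 CPM. These were Mapre3, encoding a protein of growing microtubule ends, with a Pearson r of 0.997, then Zfp185 (0.996), Cntn1 (0.993), Thegl (0.993) and Chn2 (0.992). They are the highest of many candidates over few libraries, and r is given as a description. Mapre3 stood at 133, 123 and 149 CPM in the WT libraries and at 157, 141 and 179 in the KO libraries, with WT 2 lowest and KO 3 highest as for most members.

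Other genes of the theca and of acrosome anchoring had a median nearer to 0 than the members, a difference that was not tested. Of 24 such genes 23 were tested, Pfn3 being at 0, and 0 passed; the median log2 fold change was 0.04, with 16 above 0. Plcz1 and Hook1 had an unadjusted p under 0.05, both higher in KO (2 of 23, against 4.63% of all genes in either direction). Hook1, needed for shaping the sperm head, had a log2 fold change of 0.23 with no overlap between genotypes (462, 393 and 425 CPM in WT, 483, 490 and 528 in KO). Spaca1 and Dpy19l2, whose products tie the acrosome to the nuclear envelope, had log2 fold changes of 0.03 and 0.04. Wbp2nl, encoding a postacrosomal theca protein, had 0.21 (95% interval -0.10 to 0.52), with 89.1, 88.0 and 116 CPM in the WT libraries and 118, 84.9 and 136 CPM in the KO libraries. Its 3 high libraries were those of Ccin. Vps54 and Gopc, which act in vesicle traffic to the acrosome, had 0.16 and 0.15.

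A list of conventional actins with other actin-like and actin-related genes, and a list of the general actin machinery, had medians near 0. Of 20 actin and actin-related genes 16 were tested, 0 passed, 0 had an unadjusted p under 0.05 in edgeR, and the median log2 fold change was -0.03, with 6 above 0. The WT and KO means of Actb were 682 ± 48.8 and 702 ± 67.7 CPM, and those of Actg1 718 ± 20.1 and 688 ± 28.5 CPM (SD, n = 3), with log2 fold changes of 0.04 and -0.06. The tested actin-like genes of this list, Actl6a, Actl10 and Actl11, had log2 fold changes of -0.08, -0.25 and 0.01. Actr1b had -0.17, and Actr10, a dynactin subunit, 0.11. Of 18 genes of filament capping and turnover 17 were tested and 0 passed, 1 had an unadjusted p under 0.05 in edgeR, and the group had a median of -0.0071 and 8 above 0. Gsn, encoding the filament-severing protein gelsolin, had KO values that all lay under the WT values (95.5, 91.2 and 97.7 CPM in WT, 75.0, 87.2 and 69.6 in KO), a log2 fold change of -0.29 (unadjusted p = 0.00633 and adjusted p = 0.965 in edgeR). Wdr1 and Cap2, which act in filament disassembly and recycling, had 0.18 and 0.19.

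Germ cell stage markers had medians nearer to 0 than the members. The 8 round spermatid markers had a median of 0.06 in log2 fold change, with 7 above 0 (Catsper1 0.19, Acrv1 0.19). The 10 elongating spermatid markers had 0.02, with 5 above 0 (Tekt5 0.24, Prm2 -0.15), and the 8 spermatocyte markers -0.0045, with 4 above 0 (Piwil1 0.14, Sycp3 -0.07). Somatic and early germ cell markers had lower medians. The median was -0.15 for 7 Sertoli cell genes, with 2 above 0 (Sox9 0.06 and Wt1 0.02, with Amhr2 -0.24 and Gata4 -0.22 below). It was -0.12 for 7 spermatogonial genes, with 2 above 0 (Dmrt1 -0.26, Gfra1 0.37). With 0 above 0 in each list, it was -0.41 for 6 Leydig cell genes (Insl3 -0.94, Lhcgr -0.47), -0.36 for 6 macrophage genes (Lyz2 -0.42, C1qa -0.61) and -0.46 for 3 blood genes (Hbb-bs -0.77, Alas2 -0.28). The summed Sertoli markers were 1597 to 1820 CPM in WT and 1549 to 1608 in KO, and the summed macrophage markers 54.5 to 79.8 and 47.9 to 58.9. The summed Leydig markers spread widely within each genotype and overlapped, at 207 to 812 CPM in WT and 226 to 616 in KO. In none of these lists did a gene pass edgeR's test; an unadjusted p under 0.05 was reached by 3 macrophage genes and by 1 gene each of the round spermatid, elongating spermatid, spermatogonial, Sertoli, Leydig and blood lists, against 4.63% of all tested genes. The part of cell makeup in the members' values was not tested.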

How the data were processed

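Raw read counts for 54532 Ensembl genes in 6 testis libraries were used as the authors deposited them. HISAT2 2.0.0 and mm10 are named in the submitters' processing notes. The counting tool, strand setting and handling of reads in 2 genes are not given in the sources here. TRIzol RNA and a VAHTS mRNA-seq v2 kit were used, per the labels' protocols. Gene length, another deposited column, was used for levels per kilobase. The 6 columns were matched by genotype and replicate number, and 0 were left unmatched.

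Genes were kept with filterByExpr (minimum count 10, minimum total 15), TMM-scaled and tested over all 19320 genes with edgeR 4.0.16 (glmQLFit, glmQLFTest) in R 4.3.3, with Benjamini-Hochberg adjustment and a threshold of 0.05. The test was tested on simulated data. CPM are TMM-scaled, and intervals come from the fit's moderated standard errors. Ratios used exact permutation tests over libraries. The ratio of Actl7a to Actl7b was not computed. Overlaps and shared 50-base stretches used GENCODE M21, in which all members had the deposited coordinates. Members and lists were chosen with earlier results of these data known. Besides the members and the target, the text names Plcz1, Spaca1, Dpy19l2, Actb, Actg1, Capza1, Capza2, Capzb, the listed genes with the smallest p (up to 4 in the theca list, 3 in the actin and capping lists, 2 in each marker list) and the 5 most alike genes. Gm26657, Pfn3, Slc34a1, Ldhal6b, Pdcd2, Cox20, Med10 and Slirp were named after their values were seen. So were Actl6a, Actl11, Sox9, Wt1, Hist2h2aa1, Hist2h2aa2, Hist2h2bb and Hist2h3b. Alternatives were DESeq2 1.42.0, limma-voom (limma 3.58.1), 3 other scalings, 2 other filters, a replicate block and libraries left out.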

Additional observations from a re-analysis of the deposited data

How the results depend on the processing

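No member passed in any of the 15 alternatives, and 7 of the 9 tested kept a log2 fold change above 0 in all of them; the exceptions were Actl7a without WT 1 (-0.0038) and Actrt2 without WT 1 (-0.010), WT 2 (-0.026) or KO 1 (-0.064). With 1 library left out, Actl7a ranged from -0.0038 to 0.090 and Actrt2 from -0.064 to 0.20. Over all genes the calls rose from 1 to 2 with DESeq2, to 50 with no low-count filter, to 9 without WT 1 and KO 2, and lay between 1 and 3 with 1 library left out (3 without WT 2, 2 without WT 3 or KO 3); the cause was not tested. The log2 ratio of Cylc1 to Cylc2, KO minus WT, was 0.01 and ranged from -0.078 to 0.076 with 1 library left out, and was -0.033 without WT 1 and KO 2. Deviations from the genotype means correlated at -0.173, -0.029 and 0.114 between same-numbered libraries, and at -0.165 to 0.185 between the others. With 3 libraries per genotype these values cannot decide whether the number pairs libraries. With the replicate number as a block 1 gene and 0 members passed, 6 of 9 members had an unadjusted p under 0.05 in edgeR, against 4.45% of all genes, and the median log2 fold change of the 9 was 0.22. In the other alternatives the number of members under that p ran from 0 of 9, without WT 2 or KO 3, to 6 of 9 with no low-count filter. The share of all genes ran from 2.48% without KO 3 to 8.51% without WT 1 and KO 2. Actrt1, with 352 to 487 counts per library, was the scarcest tested member, and for Actl7b the table sets no level.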

Other observations

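Other genes in the position of Actl7b were listed at 0 as well. Ldhal6b, encoding a lactate dehydrogenase-like protein, and Pdcd2, encoding a programmed cell death protein, have all of their exonic bases (1445 and 2582) under a gene on the opposite strand, and both were at 0 in all 6 libraries. The 8 genes of this class that were above 0 included Cox20, Med10 and Slirp. Of the 782 tested X-linked genes 51 (6.52%) had an unadjusted p under 0.05 in edgeR, against 4.63% of all tested genes, a difference that was not tested, and 0 passed.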
